A study of Mus musculus with 18 samples.

Results

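The genes described here are 41 genes that take a cell through the G1/S transition and copy its DNA, measured in 18 Eμ-Myc splenic tumours of mice. They were chosen by name for these roles, and each of the 41 was represented by the probe set with a single gene symbol that had the highest mean over the 18 arrays. All 41 were measured, among 19938 genes in the whole table. They fall by role into G1/S control (4 genes), origin recognition and helicase loading (4), the MCM helicase (6), helicase activation (7), DNA polymerases and primase (6), clamp, clamp loader, single-strand binding and flap processing (7), nucleotide supply (4), and histone supply with chromatin assembly (3).

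The tumours came from mice on a C57BL/6 background that all carried the Eμ-Myc transgene, in which the enhancer of the immunoglobulin heavy chain locus drives the Myc oncogene, so that B lineage lymphomas form. Prdm11, which encodes a member of the PR domain family of nuclear proteins, was wild type in 9 mice (WT tumours) and knocked out in 9 (KO tumours), and no treatment was given. Each tumour came from a different mouse, was taken at end stage, frozen and homogenised whole, and its RNA was hybridised to 1 Affymetrix array, so the values mix lymphoma cells with the other cells that the spleen still held. The ages and sexes of the mice, the type of knockout allele and any scan or extraction batch are unknown from the labels. The comparison asks whether these genes differ between Eμ-Myc tumours with and without Prdm11.

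Cells prepare origins in G1, when the origin recognition complex, Cdc6 and Cdt1 load the ring-shaped MCM helicase onto DNA. Cyclin E with its kinase and the Cdc7-Dbf4 kinase then switch the loaded helicase on, Cdc45 and the GINS complex join it, and primase, polymerases, the sliding clamp and its loader build the new strands. Many of these genes are transcribed by E2F factors once the retinoblastoma protein is phosphorylated, and Myc is known to push B cells into this programme. In bulk tumours, fewer cycling cells and less RNA of these genes per cell cannot be told apart.

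Since E2F factors are the textbook regulators of this set, promoters were searched for E2F words. RefSeq windows on GRCm38.p6 that run from 250 bases before to 50 bases after each start site were found for 35 of the 41 genes. The words were TTTCCCGC, TTTCGCGC, TTTGCCGC and TTTGGCGC on either strand, and matches that overlap were each counted. Of the 35 genes, 13 held at least 1 of these words (37.1%), against 704 of 27025 genes with a window (2.61%). The 13 were Mcm3, Mcm5, Mcm6, Mcm7, Orc1, Cdc6, Cdt1, E2f2, Gins3, Rfc3, Lig1, Pold1 and Pola1. They held 19 matches, of which 12 began within 100 bases of the start site and 8 lay on the strand of the gene, and TTTGCCGC was in 0 member windows. The CCAAT word, on either strand, was in 20 of 35 genes (57.1%) against 41.1% of all genes, and the E box CACGTG, a word that Myc with Max can bind, was in 5 of 35 (14.3%) against 8.09%. A match is a description of the letters in the window and shows no binding.

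4 windows are shown with their E2F words in capitals, since they set the 3 E2F-word genes that varied most closely with the other replication genes over the tumours beside the gene that varied least with them. Mcm5 (chr8:75109259-75109558, plus strand) encodes a subunit of the MCM helicase, and in its window a TTTCGCGC and a TTTGGCGC on the opposite strand overlap. Mcm7 (chr5:138171834-138172133, minus strand, 1 of 2 windows of the gene) encodes another subunit and holds a match on each strand. Cdc6 (chr11:98907901-98908200, plus strand) encodes the loading factor, and Cdt1 (chr8:122567765-122568064, plus strand) encodes its partner. All are written 5′ to 3′ on the strand of the gene.
Mcm5: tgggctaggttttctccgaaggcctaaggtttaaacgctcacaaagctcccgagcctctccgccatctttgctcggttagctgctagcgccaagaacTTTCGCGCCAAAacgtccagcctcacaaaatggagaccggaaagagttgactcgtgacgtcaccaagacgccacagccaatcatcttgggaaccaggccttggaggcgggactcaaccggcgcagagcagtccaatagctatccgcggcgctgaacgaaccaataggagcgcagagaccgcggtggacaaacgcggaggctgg
Mcm7: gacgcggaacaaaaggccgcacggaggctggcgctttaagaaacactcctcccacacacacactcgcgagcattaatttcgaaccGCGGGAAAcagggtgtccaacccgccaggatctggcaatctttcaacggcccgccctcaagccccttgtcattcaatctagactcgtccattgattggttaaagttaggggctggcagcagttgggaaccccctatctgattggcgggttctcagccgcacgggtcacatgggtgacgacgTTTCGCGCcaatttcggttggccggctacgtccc
Cdc6: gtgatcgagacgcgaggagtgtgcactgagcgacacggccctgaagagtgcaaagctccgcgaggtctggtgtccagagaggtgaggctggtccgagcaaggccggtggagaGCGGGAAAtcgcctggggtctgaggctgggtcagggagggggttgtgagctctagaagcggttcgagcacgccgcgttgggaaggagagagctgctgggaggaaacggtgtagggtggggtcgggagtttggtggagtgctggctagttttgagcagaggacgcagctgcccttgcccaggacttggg
Cdt1: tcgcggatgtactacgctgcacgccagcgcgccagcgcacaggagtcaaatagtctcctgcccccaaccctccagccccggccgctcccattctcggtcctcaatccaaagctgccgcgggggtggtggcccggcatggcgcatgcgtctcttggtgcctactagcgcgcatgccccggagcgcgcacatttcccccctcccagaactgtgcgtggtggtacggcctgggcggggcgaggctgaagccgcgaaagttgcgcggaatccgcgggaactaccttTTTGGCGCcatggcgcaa

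Array medians ran from 35.3 to 41.7 on the deposited intensity scale. The array of WT tumour 3 stood apart, as its median r with the remaining arrays over all 35556 probe sets was 0.924, against 0.957 to 0.976. Prdm11 itself read 4.84 to 5.66 (median 5.34, log2 intensity) in WT tumours and 4.87 to 5.49 (median 5.22) in KO tumours, so the genotypes overlapped. The labels do not say whether its probe set lies in the deleted part, so this reading checks no label. Of 14 listed pan-B markers 13 were measured, and their mean ran from 6.55 to 7.77. Single B cell genes were uneven: Cd79b, of the B cell receptor, was between 8.59 and 10.24 in all 18 tumours, but its partner Cd79a went down to 3.69, the transcription factor gene Ebf1 to 4.25 and the surface gene Ms4a1 to 4.84.

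Between genotypes, no replication gene passed the test, and every one of the 41 overlapped between WT and KO tumours. The overlap is given without its share over all genes, so it marks nothing particular to these genes. With limma and Benjamini-Hochberg adjustment over all 19938 genes, 0 of 41 had an adjusted p below 0.05, where 1 gene of the whole table did (0.00502%). At an unadjusted limma p below 0.05 the count was also 0 of 41, against 6.7% of all genes (2.83% higher and 3.87% lower in KO tumours). Differences, always KO minus WT on the log2 scale, ran from -0.23 for Fen1 to 0.36 for Pola1, with a median of 0.02 against -0.03 over all genes. Of the 41, 23 were positive and 18 negative, where 8139 of all 19938 genes were positive and 11799 negative. Adjusted p-values lay between 0.785 and 0.995.

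Precision sets what these 9 against 9 tumours could show. Standard errors of the difference ran from 0.10 to 0.33. The 95% confidence intervals reached at most from -0.74, for Ccne2, to 0.90, for Pola1, which is 1.87-fold, and 24 of the 41 intervals lay within 0.5 of 0 on the log2 scale (1.41-fold). Genotype accounted for a median of 2.33% of a gene's variance over the 18 tumours.

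**Figure D1:**
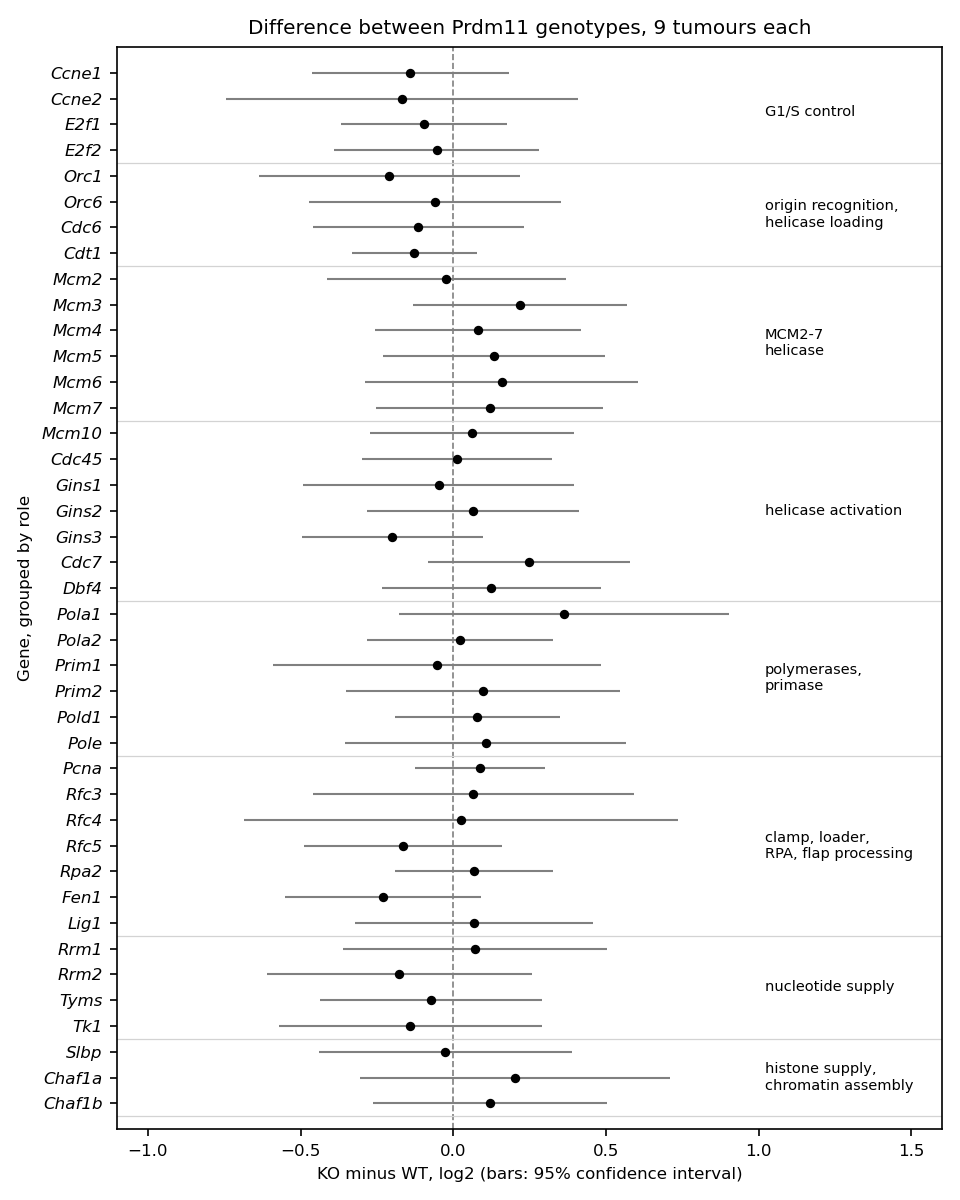
Difference between KO and WT tumours in log2 intensity (x axis) for each of the 41 genes, grouped by role (y axis); points are limma differences of 9 against 9 tumours and bars are 95% confidence intervals. All bars cross 0, from Fen1 at -0.23 to Pola1 at 0.36.

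The G1/S control genes had 4 of 4 differences below 0, none past the test. Ccne1, a cyclin E gene, had a WT mean of 7.69 and a KO mean of 7.54, a difference of -0.14. Ccne2, the other cyclin E gene, averaged 8.96 and 8.79, a difference of -0.17. Its spread was unequal: over the 18 tumours it ran from 7.59 in KO tumour 3, through a median of 9.05, to 9.57 in KO tumour 8, a 3.93-fold range, with an SD of 0.30 in WT and 0.76 in KO tumours. So the highest and the lowest tumour for this cyclin were both KO. E2f1, an activator of S phase genes, averaged 5.59 and 5.49, and E2f2, a related activator, averaged 6.03 and 5.98.

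Origin recognition and helicase loading likewise had 4 of 4 differences below 0 and none past the test. Orc1, the largest subunit of the origin recognition complex, was 5.15 at its lowest, 5.88 at its median and 6.49 at its highest in WT tumours, and 5.19, 5.79 and 6.20 in KO tumours. The lowest of all was WT tumour 3 and the highest WT tumour 1, with the KO tumours inside that range, and the difference was -0.21 (SE 0.20, limma p = 0.277, adjusted p = 0.857, exact permutation p = 0.309). Orc6, another subunit, averaged 10.23 and 10.17, and Cdc6 averaged 7.06 and 6.95. Cdt1, which brings the MCM ring to origins and is kept from re-use by geminin, ran from 5.33 through 5.55 to 5.81 in WT tumours and from 4.99 through 5.43 to 5.89 in KO tumours. The lowest and the highest tumour were both KO, tumours 6 and 4, and only 1 of 9 KO tumours stood above the WT median. Its difference was -0.13 (SE 0.10, limma p = 0.223, adjusted p = 0.832, exact permutation p = 0.209), and without KO tumour 4 it was -0.19 with an unadjusted limma p of 0.0493 (adjusted p = 0.666). Cdt1 also had the smallest SD of the 41 over 18 tumours, 0.21.

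The MCM helicase genes had 5 of 6 differences above 0, none past the test. Mcm3 ran from 6.19 through 6.82 to 7.44 in WT tumours and from 6.44 through 7.12 to 7.36 in KO tumours. WT tumours 5 and 1 marked both ends, and 7 of 9 KO tumours lay above the WT median. Its difference was 0.22 (SE 0.17, limma p = 0.179, adjusted p = 0.818, exact permutation p = 0.205). The other subunits of the ring gave smaller differences. Mcm2 averaged 6.88 (WT) and 6.86 (KO), and Mcm4 averaged 7.54 and 7.62. Mcm5 averaged 7.62 and 7.75, a difference of 0.13. Mcm6 averaged 8.67 and 8.82, a difference of 0.16. For this subunit WT tumour 1 was highest, at 9.56, and WT tumour 3 lowest, at 7.90. Mcm7 averaged 7.44 and 7.56, a difference of 0.12, and KO tumours held both its lowest level (6.54, KO tumour 6) and its highest (8.04, KO tumour 3).

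Among the helicase activation genes 5 of 7 differences were above 0, and none passed the test. Cdc7, the kinase that phosphorylates the loaded MCM ring, had the smallest p of the 41. It ran from 5.59 through 6.19 to 6.41 in WT tumours and from 5.88 through 6.48 to 6.78 in KO tumours. WT tumour 5 was lowest and KO tumour 3 highest, with 6 of 9 KO tumours above the WT median, and the difference was 0.25 (SE 0.16, limma p = 0.110, adjusted p = 0.785, exact permutation p = 0.131). Dbf4, the subunit that activates Cdc7, averaged 8.17 and 8.29, a difference of 0.13. Gins3, a subunit of the GINS complex, ran the other way: from 7.11 through 7.54 to 8.29 in WT tumours and from 6.98 through 7.45 to 7.95 in KO tumours. Its highest value was on the array that stood apart, WT tumour 3, and only 1 of 9 KO tumours exceeded the WT median. The difference was -0.20 (SE 0.14, limma p = 0.155, adjusted p = 0.810, exact permutation p = 0.175). The remaining activation factors were close between genotypes: Gins1 averaged 9.03 and 8.98. Gins2 averaged 7.36 and 7.42. Mcm10, which works with Cdc45 at the activated helicase, averaged 6.65 and 6.71, and Cdc45 averaged 7.70 and 7.71.

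The polymerase and primase genes had 5 of 6 differences above 0, and none passed the test. Pola1, the catalytic subunit of polymerase alpha that starts each strand, had the largest difference of the 41. It ran from 7.04 through 7.997 to 9.08 in WT tumours and from 7.53 through 8.35 to 8.84 in KO tumours. WT tumours 3 and 1 marked both ends, 4.12-fold apart, so that the KO tumours lay inside the WT range while 7 of 9 stood above the WT median. The difference was 0.36 (SE 0.26, limma p = 0.135, adjusted p = 0.804, exact permutation p = 0.173), and without WT tumour 1 it was 0.50 with an unadjusted limma p of 0.0243 (adjusted p = 0.556). Pola2, the partner subunit of Pola1, averaged 6.11 and 6.13. Prim1, the primase catalytic subunit, had a KO mean of 9.95 that differed by -0.05 from the WT mean, and over the 18 tumours it ran from 9.01 through 10.19 to 10.58. KO tumours 6 and 9 were its ends. Prim2, the large primase subunit, averaged 7.36 and 7.45, a difference of 0.10. Pold1, the catalytic subunit of polymerase delta, averaged 6.43 and 6.51, and Pole, that of polymerase epsilon, averaged 6.35 and 6.46, a difference of 0.11.

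Of the clamp, clamp loader, single-strand binding and flap processing genes, 5 of 7 had differences above 0 and none passed the test. Pcna, the sliding clamp, was among the steadiest: over the 18 tumours it ran from 11.16 through 11.72 to 11.93, a 1.71-fold range, and averaged 11.60 (WT) and 11.69 (KO). Rfc4, a subunit of the loader that opens this clamp, was the most variable of the 41, from 7.20 in WT tumour 3 through 9.13 to 9.62 in KO tumour 9, a 5.38-fold range. Yet its genotype means were 8.88 and 8.91. Rfc3, another loader subunit, averaged 8.93 and 8.99. Rfc5 ran from 7.81 through 8.17 to 8.59 in WT tumours and from 7.42 through 8.25 to 8.41 in KO tumours. For this loader gene KO tumour 6 was lowest and 6 of 9 KO tumours were above the WT median, although the difference of means was -0.16 (SE 0.15, limma p = 0.272, adjusted p = 0.857, exact permutation p = 0.298). Fen1, the nuclease that trims flaps on the lagging strand, ran from 7.15 through 7.31 to 7.91 in WT tumours and from 6.33 through 7.27 to 7.50 in KO tumours. KO tumour 6 was lowest by a wide margin and WT tumour 1 highest, and the difference was -0.23 (SE 0.15, limma p = 0.127, adjusted p = 0.796, exact permutation p = 0.149). Lig1, which seals the trimmed fragments, averaged 7.87 and 7.93, and Rpa2, part of the single-strand binding complex, averaged 7.15 and 7.22.

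In nucleotide supply 3 of 4 differences were below 0, none past the test. Rrm1, the large subunit of ribonucleotide reductase, averaged 8.84 and 8.91, and Rrm2, its S phase partner, averaged 10.34 and 10.17, a difference of -0.18. Tyms, thymidylate synthase, averaged 7.89 and 7.82. Tk1, thymidine kinase, averaged 7.90 and 7.76, a difference of -0.14, and a second Tk1 probe set gave 0.04 and correlated with the first at r = 0.66 over the 18 tumours, so the probe sets of this gene disagreed in sign. Histone supply and chromatin assembly had 2 of 3 differences above 0, none past the test. Slbp, which binds the end of histone messages, averaged 8.23 and 8.21. Chaf1a and Chaf1b, subunits of the factor that deposits new histones behind the fork, differed by 0.20 (6.92 and 7.12) and 0.12 (6.04 and 6.16).

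**Figure D2:**
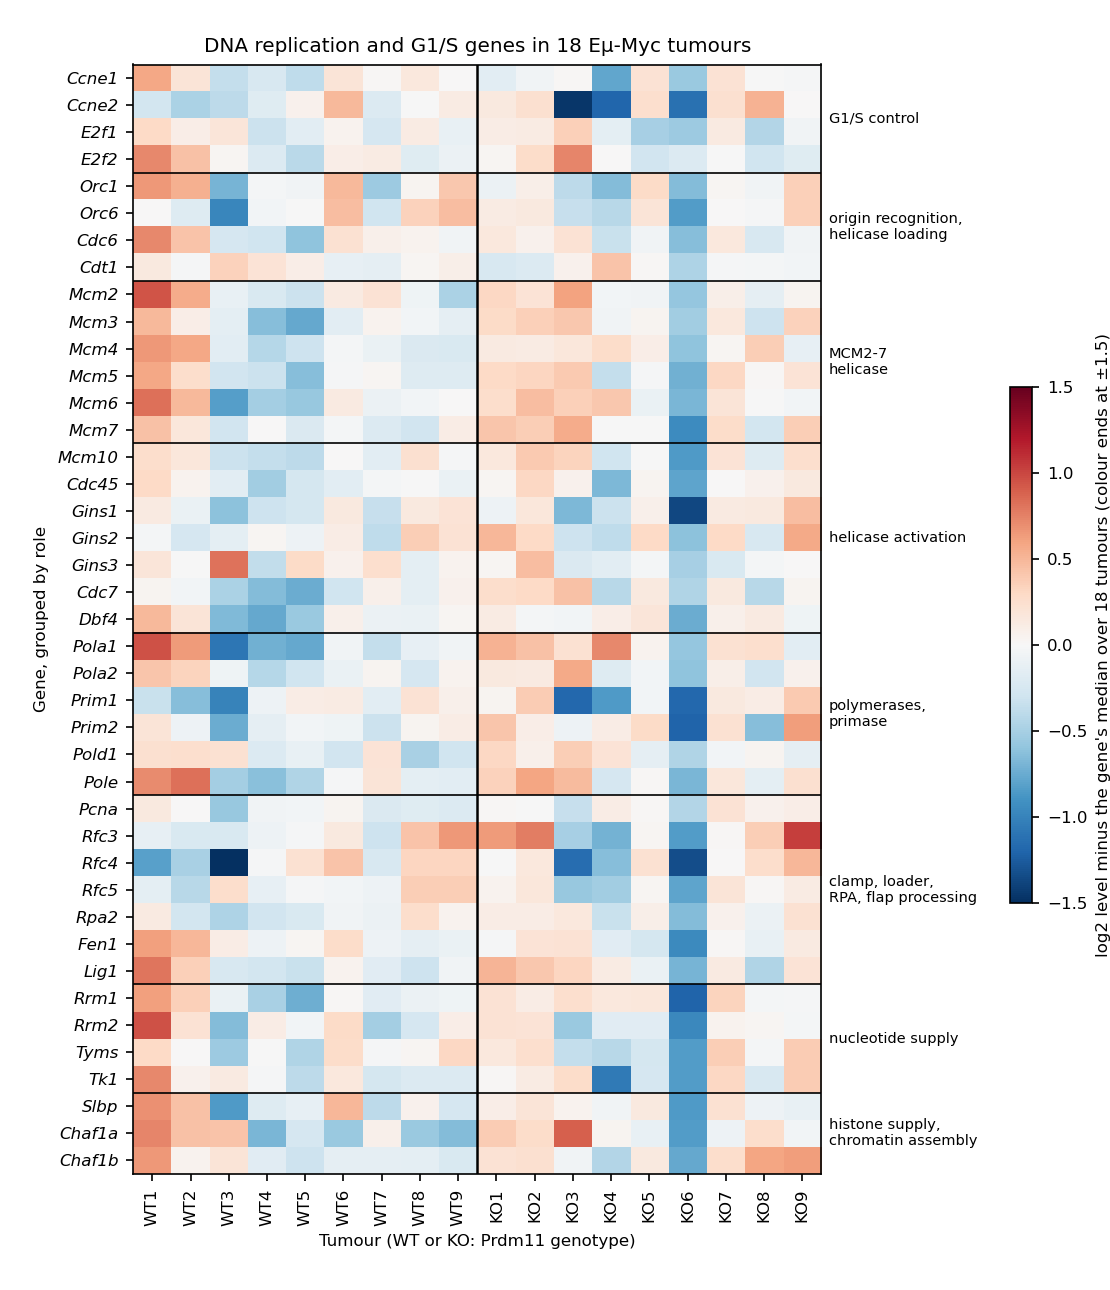
Log2 level of each of the 41 genes (rows, grouped by role) in each of 18 tumours (columns, WT left of the line and KO right) minus that gene's median over the 18 tumours; colours end at 1.5 in either direction. KO tumour 6 is blue in 41 of 41 rows and WT tumour 1 is red in most MCM, nucleotide and histone supply rows, while the genotypes do not form separate blocks.

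Tumours differed from each other far more than the genotypes did. The mean log2 level over the 41 genes was 7.68 ± 0.22 (SD, n = 9) in WT tumours, from 7.41 (tumour 3) through a median of 7.70 to 8.11 (tumour 1). In KO tumours it was 7.70 ± 0.31 (SD, n = 9), from 6.97 (tumour 6) through 7.74 to 7.96 (tumour 2). The highest and lowest tumour were 2.20-fold apart. The difference of means was 0.01 on the log2 scale (SE 0.13), smaller than the SD within either genotype. KO tumour 6 weighed on that difference: 6 of 9 KO tumours stood above the WT median, the KO median was above the WT median for 31 of 41 genes, and without KO tumour 6 the difference was 0.10. Without WT tumour 3 it was -0.02, and quantile normalization of the arrays turned it to -0.03. Without WT tumour 1 and KO tumour 6, left out after the data were seen, it was 0.16.

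**Figure D3:**
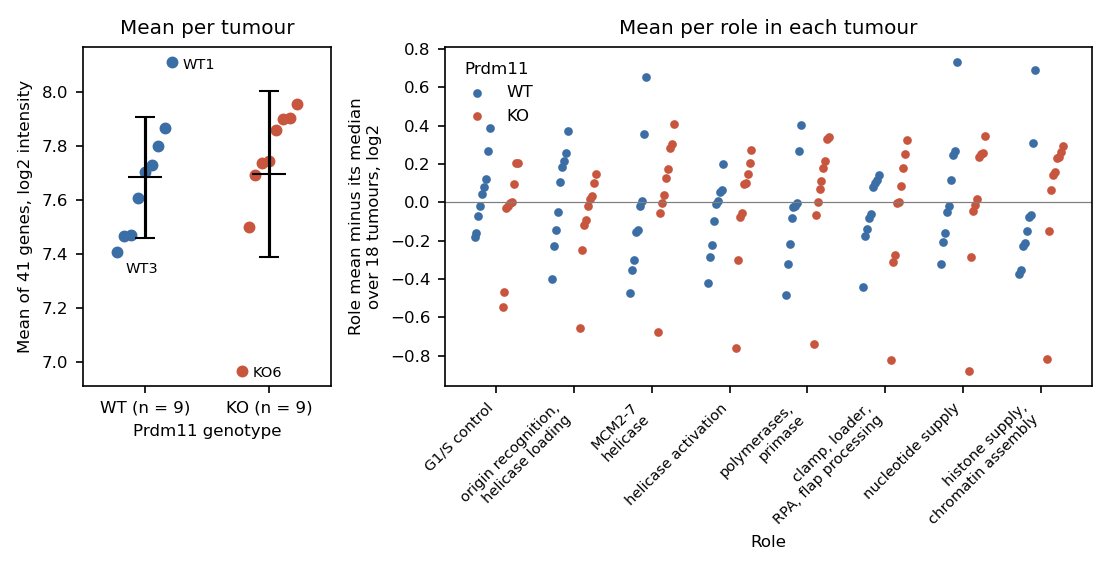
Left, mean log2 intensity of the 41 genes in each tumour by Prdm11 genotype, with the mean and SD of 9 tumours; right, the mean of each role in each tumour minus the median of that role over the 18 tumours. WT tumour 1 (8.11) is highest, KO tumour 6 (6.97) is lowest in the total and in each role, and the other tumours of both genotypes overlap.

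KO tumour 6 was below the 18-tumour median for 41 of 41 genes and the lowest of all 18 tumours for 27. Its role means lay between -0.55, for G1/S control, and -0.88, for nucleotide supply, from the median tumour, which is 1.46-fold to 1.84-fold lower. In this tumour Rrm1 read 7.71 against a median of 8.91 over the 18 tumours, Gins1 read 7.78 against 9.14, and Prim2 read 6.27 against 7.47. WT tumour 3, the next lowest in the mean of the 41, was also under the median tumour in each role, by between -0.07, for G1/S control, and -0.49, for polymerases and primase.

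WT tumour 1 was the highest of the 18 for 17 genes, but unevenly over the roles. Nucleotide supply stood 0.73 above the median tumour there, histone supply and chromatin assembly 0.69 and the MCM helicase 0.65, whereas the clamp and loader group stood only 0.08 above. Rrm2 reached 11.28 in this tumour against a median of 10.32. Other tumours also divided the set: KO tumour 3, highest for 7 genes, was 0.41 above the median tumour for the MCM helicase and -0.27 from it for the clamp and loader group. KO tumour 9, also highest for 7 genes, was 0.33 above the median for the clamp and loader group and 0.13 above it for the MCM helicase. The order of the tumours thus differed from role to role.

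The SD of the 41 genes over the 18 tumours had a median of 0.36, against 0.26 for all genes, and 38 of 41 were above the all-gene median. A correlation with the mean of the other 40 genes measured how far each one varied with the set, where each of the 18 points is a tumour and all genes of a point share its array and its mixture of cells. Pearson's r had a median of 0.73, from 0.02 for Cdt1 to 0.91 for Mcm10, and 32 of 41 genes were above 0.5, as 5.71% of all other genes were against the mean of the 41. With each genotype's mean subtracted the median was 0.74. Leaving out WT tumour 1 and KO tumour 6, the ends of the range, gave 0.56, with 24 of 41 above 0.5.

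Mcm10 (r = 0.91), Mcm5 (0.88), Cdc45 (0.86), Rrm1 (0.85) and Mcm7 (0.84) followed the set most closely. At the other end stood Cdt1 (0.02), Gins3 (0.21) and Pold1 (0.34). Without WT tumour 3 Gins3 was at 0.54, while Cdt1 (0.15) and Pold1 (0.43) were still below 0.5. Without WT tumour 1 and KO tumour 6 all these values were lower, at -0.80 for Cdt1, -0.21 for Gins3 and -0.03 for Pold1. Among those other tumours the loading factor Cdt1 thus tended to read lower where the rest of the set was higher. Cdc6, which loads the helicase with Cdt1, was at 0.73. The Cdt1 signal was low and nearly flat, however, with a median of 5.46 against 5.39 for the median gene, and an SD of 0.21. Its highest WT and KO levels were in WT tumour 3 and KO tumour 4. Their arrays had the lowest median r with the remaining arrays (0.924 and 0.957), and their part in this value was not tested. Genes with an E2F word had a median r of 0.70 and matched genes without one 0.74, and the Mcm5 and Cdt1 windows printed above, from both ends of this order, each hold one.

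Pairs of the 41 genes gave 820 correlations with a median of 0.52, of which 73 were negative. The closest pair was Mcm6 with Pola1 (r = 0.96) and the most opposed was E2f2 with Rfc4 (r = -0.43). Within the MCM helicase the median pair was at 0.77, against 0.57 between MCM genes and genes of other roles. Origin recognition and loading genes were looser, with a median of 0.17 among themselves and 0.39 to other roles.

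**Figure D4:**
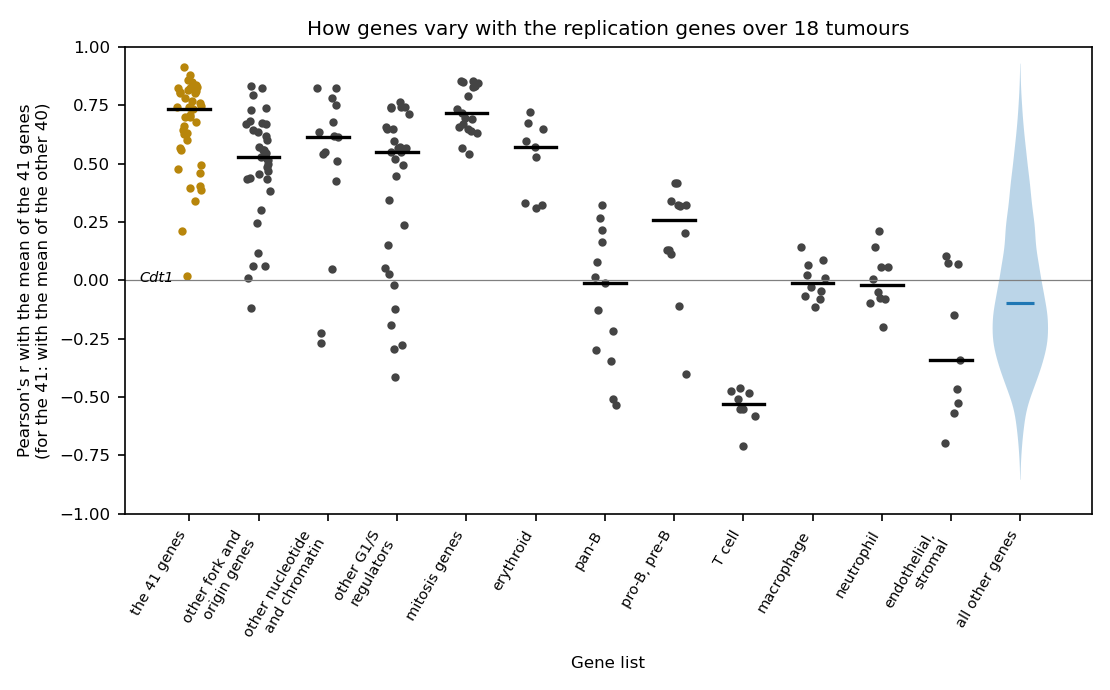
Pearson's r over 18 tumours with the mean of the 41 genes (y axis; for the 41, with the mean of the other 40) for each gene of each list (x axis), bars at list medians and a violin for all other genes. The 41 genes have a median of 0.73 and mitosis genes 0.72, T cell markers lie at -0.53, and all other genes at -0.10.

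Genes of the same pathway outside the 41 were described in the same way. In the fork and origin list, which holds the remaining origin recognition, polymerase and checkpoint genes, 35 of 35 were measured, 21 differences were above 0 and 0 passed the test, adjusted or not. Its smallest p-values were those of Rnaseh2c, an RNase H2 subunit (-0.25), Mcmbp, an MCM-binding protein (0.20), and Dna2, a flap nuclease (0.23). In the list of nucleotide and chromatin genes 15 of 16 were measured, 13 differences were above 0 and again 0 passed, led by Hells (0.31), a chromatin remodeller, Dctd (0.26), a deaminase of dCMP, and Dnmt1 (0.34), the maintenance DNA methyltransferase.

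Among 29 measured of 30 G1/S regulators, 17 differences were above 0 and 0 passed the adjusted test. At an unadjusted limma p below 0.05, 1 of the 29 was higher in KO tumours, against 2.83% of all genes. This was Cdk6, a partner of D cyclins. It ran from 5.65 through 6.19 to 8.01 in WT tumours and from 6.45 through 7.06 to 7.76 in KO tumours, and the difference was 0.63 with an SE of 0.29 (limma p = 0.0246, adjusted p = 0.699, exact permutation p = 0.0441). All KO levels lay inside the WT range, which ended higher. Cdkn2d, an inhibitor of D cyclin kinases, differed by -0.22 and Ccnd1, cyclin D1, by 0.25. Of 19 measured of 20 mitosis genes, 13 differences were above 0 and 0 passed the adjusted test. At the unadjusted threshold 1 of the 19 was lower in KO tumours, against 3.87% of all genes. This was Nusap1, a spindle microtubule protein. It ran from 9.32 through 9.50 to 10.40 in WT tumours and from 8.19 through 9.24 to 9.60 in KO tumours. Below every WT tumour stood 6 of 9 KO tumours. The difference was -0.53 with an SE of 0.19 (limma p = 0.00769, adjusted p = 0.699, exact permutation p = 0.00909). Ccnb2, cyclin B2, differed by -0.32 and Bub1b, a spindle checkpoint kinase, by 0.31, so neighbouring mitosis genes took opposite signs.

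Over tumours these lists went with the 41 genes. The mean of the mitosis list correlated with the mean of the 41 at r = 0.88 (Spearman's rho 0.87, n = 18), and at 0.76 without WT tumour 1 and KO tumour 6. All 19 mitosis genes had an r above 0.5 with the mean of the 41. Outside the lists, the 10 genes most like the mean of the 41 over the 18 tumours were Cenpn, Anln, Dlgap5, Slc16a1, Melk, Blm, Rbmx2, Ncapg2, Tacc3 and Dtl, with r from 0.90 to 0.93. Cenpn, Dlgap5, Ncapg2 and Tacc3 act on centromeres, spindles or mitotic chromosomes, Anln in cytokinesis, Blm is a DNA helicase, Dtl guides the destruction of Cdt1, and Slc16a1 is a lactate transporter.

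**Figure D5:**
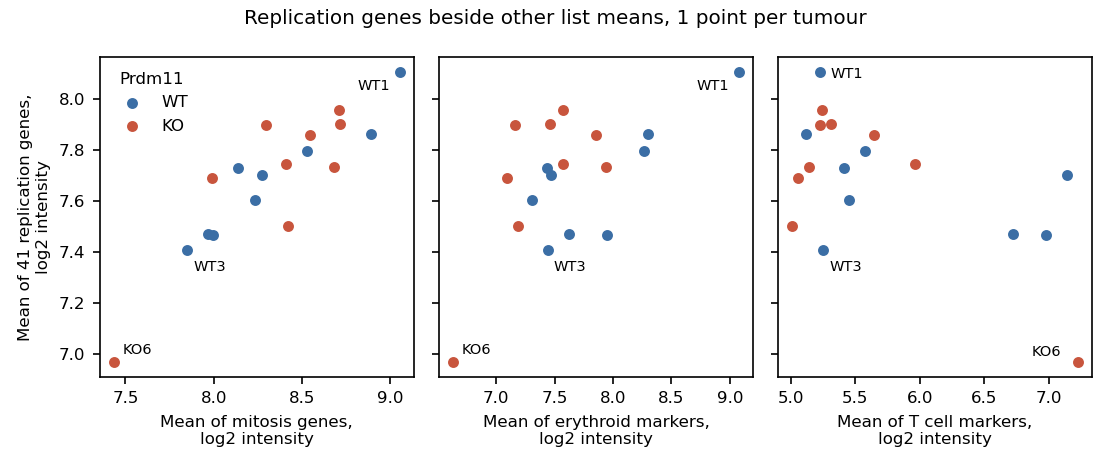
Mean log2 intensity of the 41 genes (y axis) against the mean of mitosis genes, erythroid markers and T cell markers (x axes), 1 point per tumour, coloured by Prdm11 genotype. WT tumour 1 has the highest and KO tumour 6 the lowest mitosis and erythroid means, and KO tumour 6 also has the highest T cell mean.

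Markers of other cells also varied between these tumours. The mean of 9 measured erythroid markers of 15 listed was highest in WT tumour 1 (9.08) and lowest in KO tumour 6 (6.63), the same tumours that ended the range of the replication genes, and all 9 markers had their highest value in WT tumour 1. Over the 18 tumours this mean correlated with the mean of the 41 genes at r = 0.61 (rho 0.43), at 0.77 within the 9 WT and 0.71 within the 9 KO tumours, and at 0.18 without those tumours. The mean of 8 measured T cell markers of 10 listed was highest in KO tumour 6 (7.22), then WT tumour 8 (7.14), WT tumour 4 (6.98) and WT tumour 5 (6.72), and at most 5.96 in the other 14. It correlated with the mean of the 41 at r = -0.58, at -0.45 within WT and -0.75 within KO tumours, and at -0.36 without WT tumour 1 and KO tumour 6. The mean of 9 endothelial and stromal markers of 9 listed was also highest in KO tumour 6 (5.83). Its r with the mean of the 41 was -0.51, or -0.52 without WT tumour 1 and KO tumour 6, with -0.08 within WT and -0.72 within KO tumours. Pan-B markers gave a mixed picture. Their mean had r = -0.22 over the 18 tumours (rho 0.10), but 0.37 without WT tumour 1 and KO tumour 6, so the sign rested on those tumours. KO tumour 6 was highest of the 18 for 3 of 13, and WT tumour 1 was lowest for 3 and highest for 1, Ebf1. Macrophage and neutrophil means had r of -0.01 and 0.03, and the pro-B and pre-B mean 0.33. Without WT tumour 1 and KO tumour 6 these were -0.04, -0.16 and 0.12. The part of T cells and other cells in the levels of the replication genes was not tested.

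Erythroid markers also differed with genotype: their mean was 7.87 ± 0.58 (SD, n = 9) in WT and 7.39 ± 0.41 (SD, n = 9) in KO tumours, and 4 of 9 were lower in KO tumours at an unadjusted limma p below 0.05, against 3.87% of all genes. At that threshold 8 of 13 pan-B markers and 3 of 12 pro-B and pre-B markers were higher in KO tumours, against 2.83% of all genes, and 2 of 10 macrophage markers and 1 of 9 endothelial and stromal markers were lower. No T cell or neutrophil marker passed it, 0 of 8 and 0 of 10, and 0 markers of any list passed the adjusted test. With the erythroid mean as a covariate in limma, 14 of 41 replication genes were higher in KO tumours at an unadjusted p below 0.05, against 6.72% of all genes in the same fit, and 0 were lower. The 14 were Mcm2, Mcm3, Mcm4, Mcm5, Mcm6, Mcm7, Cdc7, Dbf4, Pola1, Pole, Lig1, Rrm1, Slbp and Chaf1a, so all 6 MCM genes were among them. In this fit Pola1 differed by 0.71 (adjusted p = 0.201, the lowest of the 41), Mcm6 by 0.47, Mcm5 by 0.40 and Rrm1 by 0.37, the mean difference over the 41 was 0.19, and 36 differences were above 0. None passed the adjusted test.

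The transferrin receptor gene Tfrc is an erythroid marker that dividing cells also use, and with it left out of the covariate the count was 13 of 41 (6.92% of all genes). With the covariate but without WT tumour 1 and KO tumour 6 it was 15 of 41 (6.87%), and with neither those tumours nor a covariate it was 10 of 41 (4.34%), with Pola1 at 0.60, Mcm3 at 0.37 and Mcm7 at 0.31. These tumours were left out after the data were seen, and because they also had the highest and the lowest mean of the 41 genes, leaving them out selects on the measured outcome. The covariate itself differed between genotypes (means of 7.87 and 7.39), and which fit describes the replication genes better was not tested.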

How the data were processed

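The authors deposited 1 linear intensity per probe set and array, made with RMA (robust multi-array average), per the submitters' processing notes. Its version and settings are not stated in the sources used here. They ran from 1.63 to 14996.1 and were transformed to log2 with no pseudocount. The design had allowed for log2 values and named this step for linear ones. Of 35556 probe sets, 21789 had 1 symbol in the platform annotation, 1621 several and 12146 none. A match of gene identifiers to RefSeq changed 0 symbols. At most 0.045% of values were equal between 2 arrays, so no array was a copy of another. Each array was taken as 1 replicate because the labels give each tumour its own ID. The number of arrays limits the precision.

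Genotypes were compared over 9 and 9 tumours with limma 3.58.1 (lmFit, eBayes) in R 4.3.3, with Benjamini-Hochberg adjustment over 19938 genes and a threshold of 0.05. Printed standard errors and 95% intervals are unmoderated, and limma p-values are moderated. The two-sided exact permutation test used all 48620 splits into 9 and 9 tumours, with a smallest possible p of 4.1e-05. The limma script was checked on simulated data. Other steps ran in Python 3.11.15 (numpy 2.4.6, pandas 2.3.3, scipy 1.17.1, matplotlib 3.10.9).

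The members, the pathway lists and the marker lists were chosen with earlier results of these data known, so counts over them are descriptions and carry no test of their own. Named are all 41 members with their genotype means, the 8 with the smallest p in full, the 4 with the largest and 2 with the smallest SD over the tumours, the 3 genes of each pathway list with the smallest p, and the 10 genes outside the lists most correlated with the mean of the members. Replicate numbers were taken only to name a tumour, since the labels state no pairing. Over all genes, deviations of same-numbered tumours correlated at r between -0.23 and 0.49, and 4 of 9 pairs were above 0.1. Over the 41 genes r ran from -0.28 to 0.61. Differently numbered tumours were not compared, so these values cannot decide whether the numbers mark pairs. Alternatives were other scalings, probe set rules, array weights, filters, the replicate block, an erythroid covariate and each tumour left out. Promoter windows came from RefSeq on GRCm38.p6.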

Additional observations from a re-analysis of the deposited data

Results flagged for a closer look

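A total of 100 groups of 9 tumours (each member and each role mean in each genotype, and the mean of all members) were searched for a tumour far from the other 8, by a gap to the nearest of more than 0.493 of the group's range. Chance alone gives about 5% of such groups. There were 12, and 11 of them were KO tumour 6. The groups are not independent, since they share the same tumours and the means are built from the same members. The 12 therefore cannot be weighed against the 5%, and the 11 describe a single tumour.

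In KO tumour 6 the mean log2 level of the 41 genes was 6.97, against 7.50 in the nearest KO tumour. Its role means were 6.5 for origin recognition and helicase loading (nearest 6.90), 6.87 for the MCM helicase (nearest 7.48), 6.68 for polymerases and primase (nearest 7.35) and 6.30 for histone supply and chromatin assembly (nearest 6.97). Of single genes, 6 stood out in KO tumour 6. Mcm4 was 6.96 and Mcm6 8.04. Dbf4 was 7.58, where the next KO tumour was at 8.25, and Fen1 was 6.33, where the next was at 7.02. Rrm1, at 7.71 against 8.88, had the widest gap, 0.765 of the KO range, and Slbp was 7.39 against 8.14. Among WT tumours, Tk1 was 8.62 in WT tumour 1, against 8.05 in the nearest.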

How the results depend on the processing

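Under every alternative run, 0 of 41 members and 0 of the pathway genes passed the adjusted threshold, and the lowest adjusted limma p of a member was 0.194 (Pola1, erythroid covariate with Tfrc left out). The count of members higher in KO tumours at an unadjusted p below 0.05, 0 in the fit reported, was 2 with array weights (Cdc7 and Mcm3, against 5.60% of all genes in that fit), 14 with the erythroid covariate, 13 with Tfrc left out of it, 15 with the covariate but without WT1 and KO6, and 10 without WT1 and KO6 alone. The last 3 settings, and leaving out WT3 and KO6, were chosen after the data were seen. Of 98 pathway genes, 1 was higher in KO tumours in the fit reported (2.83% of all genes). In the same order of settings 9, 27, 27, 29 and 14 were higher, against 5.60%, 6.72%, 6.92%, 6.87% and 4.34% of all genes. The count was 2 with the mean over probe sets (2.85%) and 3 without WT3 and KO6 (2.75%). It was 0 to 6 with single tumours left out (1.88% to 4.69%). Pathway genes lower in KO tumours, 1 in the fit reported (3.87%), were 0 in each of the 3 covariate fits, against 5.51% to 5.55% of all genes. With the replicate block 0 members passed at either threshold, and 2 pathway genes were higher and 2 lower (3.49% and 3.77% of all genes). Positive member differences, 23 in the fit reported, were 36 with the covariate, 35 with Tfrc left out, 36 with the covariate but without WT1 and KO6, and 33 without WT1 and KO6 alone. With single tumours left out they numbered 19 to 29. Members higher then numbered 0 to 1 (Pola1 without WT1, against 4.06% of all genes). Members lower numbered 0 to 1 (Cdt1 without KO4, against 4.7%), and pathway genes lower 1 to 3 (3.1% to 4.7%). The mean difference ran from -0.02 without WT3 to 0.10 without KO6 and was -0.03 after quantile normalization and 0.03 after median centring. It was 0.19 with the covariate, 0.20 in both of its variants and 0.16 without WT1 and KO6 alone. The SE of 0.13 belongs to the difference over all 18 tumours with no covariate. It does not measure the error of these other values, whose SE was not computed. Over 30 settings, 104 of 1230 member differences changed sign, in 20 members, and 21 members never did. Quantile normalization turned Cdc45 and Rfc4. The causes were not tested.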

Other observations

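Genes opposed to the replication set were looked for after the values had been seen, and the 6 with the lowest r are named. Fcer2a, the low-affinity IgE receptor of mature B cells, correlated with the mean of the 41 genes at r = -0.85 over the 18 tumours, and at -0.72 without WT tumour 1 and KO tumour 6. In the same order of settings, Defb42, a beta-defensin gene, was at -0.85 and -0.75, and Tnfsf8, a ligand of the tumour necrosis factor family, at -0.85 and -0.63. Klrb1b, a lectin-like receptor of natural killer cells, was at -0.84 and -0.71, Terb1, a meiotic telomere gene, at -0.84 and -0.73, and Cd40, a costimulatory receptor of B cells, at -0.84 and -0.68. Between genotypes they differed by -0.18 (Defb42) to 0.14 (Tnfsf8), with adjusted limma p-values of 0.864 (Defb42) to 0.987 (Terb1).

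For the 3 members with more than 1 probe set the second was also read, and Tk1 is described above. Whether the probe sets of a pair share probes or target the same transcript was not checked. The Pcna probe sets had equal means (11.64), correlated at r = 0.999 and differed between genotypes by 0.09 each. Those of Slbp correlated at 0.90, with differences of -0.03 and -0.08.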
